A study of Danio rerio with 9 samples.

Results

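Genes of smooth muscle and elastin that mark the outflow tract of the heart were followed in tissues dissected from zebrafish larvae. The set was defined by 7 symbols, acta2, tagln, tagln2, cnn1b, cnn2, elna and elnb, which were matched without regard to case to the symbols of the Ensembl identifiers in the count table. A match was found for 4 of them, on 5 of 32520 genes: acta2 (ENSDARG00000045180), CNN2 (ENSDARG00000035858), elnb (ENSDARG00000069017) and a pair of genes that share the symbol TAGLN (ENSDARG00000033466 and ENSDARG00000045408). The symbols tagln2, cnn1b and elna matched no identifier in the name table and are not analysed here. The sources used here do not say which zebrafish copy each TAGLN gene is, so each is called by its identifier. Of the 5 genes, 4 passed the filter on low counts and were tested; elnb did not.

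RNA was sequenced in 9 libraries, of which 4 were made from proepicardium, 3 from heart tube and 2 from dorsal pericardium, each a pool of at least 10 dissected organs; the series' own design text counts 3 for the proepicardium. All larvae were of strain AB, carried epi:eGFP;myl7:mRFP and were 60 hours post fertilisation (hpf), so every tissue came from fish with both transgenes, a green reporter named for epi and a red one named for the heart muscle gene myl7. The labels do not say whether pools came from separate clutches, and p-values therefore measure the spread between these libraries, which may be technical. They also do not say whether the outflow tract was cut out together with the heart tube.

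The proepicardium is a cell cluster beside the heart from which the epicardium forms, and the heart tube holds the beating myocardium. In teleosts the outflow tract matures into the bulbus arteriosus, an elastic chamber with a wall of smooth muscle. Smooth muscle alpha-actin, transgelin, calponin and elastin are common markers of that wall, although alpha-actin and transgelin are also expressed for a time in embryonic heart muscle of other vertebrates.

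Gene counts per library ranged from 8882853 to 19397355. The mCherry sequence had 3059 to 4042 counts in the heart tube libraries and at most 1 in any other. Myocardial markers took 5.16% to 6.68% of the counts in heart tubes, 0.0172% to 0.0662% in proepicardia and 0.00408% to 0.011% in pericardia. Epidermal markers took 1.16% to 4.47% in proepicardia and 5.14% to 6.16% in pericardia. In the heart tube they took 0.507% in library 1 but 0.0218% and 0.0253% in libraries 2 and 3, so heart tube 1 stood apart. The proepicardia also fell into pairs. Log2 CPM correlated at Pearson r = 0.93 between proepicardium 1 and 2 and 0.91 between 3 and 4. Across these pairs it correlated at 0.86 to 0.90. No comparison was run on either pair alone. The 7 epicardial markers took 0.00354% to 0.0152% in proepicardia, 0.0151% to 0.0325% in heart tubes and 0.00223% to 0.00231% in pericardia. Most of their heart tube counts came from podxl, at 2604, 2988 and 2571 in heart tube 1 to 3. In proepicardium 1 to 4 podxl had 276, 250, 1471 and 391 counts. Mean levels of podxl, ALDH1A2 and, slightly, TBX18 were higher in heart tubes than in proepicardia. Those of WT1, wt1b, TCF21 and SEMA3D were higher in proepicardia. wt1b had 18, 12, 42 and 7 counts in proepicardium 1 to 4 and 0, 1 and 0 in heart tube 1 to 3. In pericardium 1 and 2 wt1b had 2 and 7 counts. In bulk tissue, fewer cells of a type and less RNA per cell cannot be told apart.

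The genes of the set did not move together. acta2 and TAGLN ENSDARG00000045408 were higher in heart tubes than in either other tissue, TAGLN ENSDARG00000033466 was lower there, CNN2 was not called in any comparison, and elnb never exceeded 1 count. Between proepicardium and heart tube, 3 of the 4 tested genes were called at an adjusted p under 0.05 (edgeR quasi-likelihood test, adjusted over 17003 genes). Of all genes tested, 29.4% were called there. In that comparison 2 of the 4 were higher in the heart tube, as were 12.7% of all genes, and 1 was higher in the proepicardium, as were 16.8%. Between heart tube and pericardium, 3 of 4 were again called, against 27.1% of all genes. There 2 were higher in the heart tube (11% of all genes) and 1 was higher in the pericardium (16.1%). Between proepicardium and pericardium edgeR called none of the 4 and 0% of all genes; 1 of the 4, acta2, had an unadjusted p under 0.05, and no alternative tool called any of them.

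**Figure D1:**
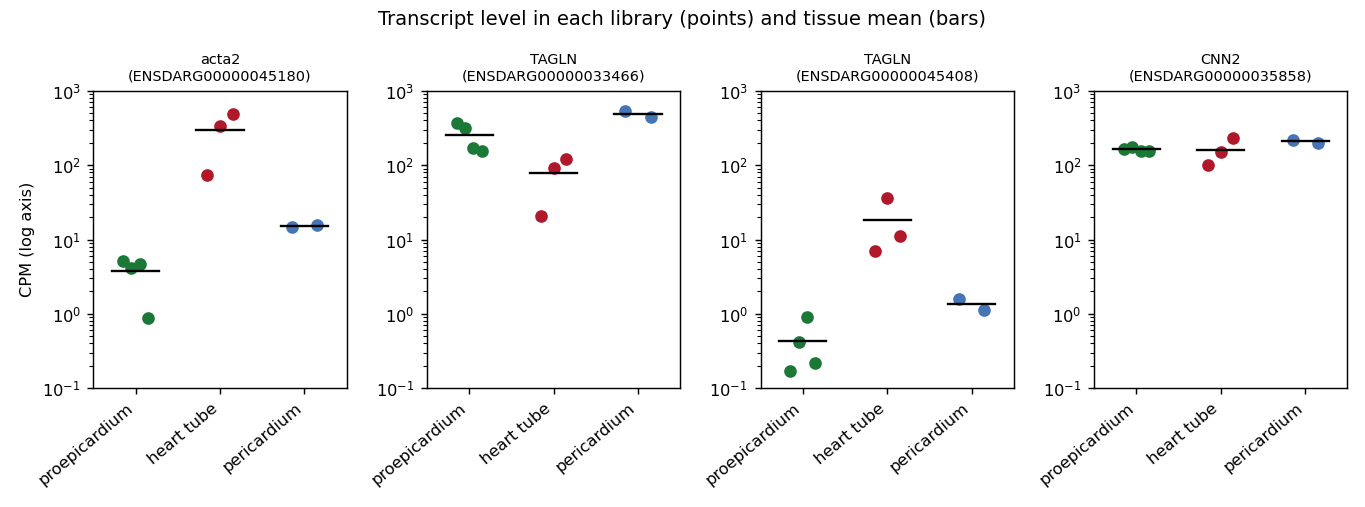
Levels of the 4 tested genes in counts per 1e+06 counts (CPM, log axis); each point is a library and each bar the mean of a tissue. The heart tube lies above the other tissues for acta2 and TAGLN ENSDARG00000045408 and below them for TAGLN ENSDARG00000033466.

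acta2 encodes the actin of smooth muscle. Its level, in CPM after TMM scaling, was 73.9, 334 and 488 in heart tube 1, 2 and 3, 5.18, 4.14, 4.72 and 0.883 in proepicardium 1 to 4, and 14.9 and 15.8 in pericardium 1 and 2. The tissues did not overlap: all heart tubes lay above both pericardia, and these lay above all proepicardia. For single genes tested, 16% were likewise free of overlap and higher in the heart tube than in the proepicardium, and 25.2% than in the pericardium. Heart tube 1, which had the most epidermal counts of its tissue, had the least acta2, and the part of that in its level was not tested.

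Means of acta2 were 299 ± 209 CPM for heart tubes (SD, n = 3), 15.3 ± 0.655 CPM for pericardia (SD, n = 2) and 3.73 ± 1.95 CPM for proepicardia (SD, n = 4). Proepicardium minus heart tube gave a log2 fold change of -6.30 ± 0.72 (SE; edgeR adjusted p = 0.000147), which was called in all 18 alternatives, at -6.76 to -4.60; without heart tube 1 it was -6.76. Heart tube minus pericardium gave 4.28 ± 0.88 (edgeR adjusted p = 0.00509), with adjusted p-values of 0.0502 and 0.0516 when pericardium 1 or 2 was left out. Proepicardium minus pericardium gave -2.02 ± 0.68 (95% interval -3.51 to -0.53) and was not called (edgeR adjusted p = 0.946). All 4 tested genes lay lower in every proepicardium than in both pericardia, an arrangement seen for 7.76% of all genes, with 7.65% arranged the other way.

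Actin genes are similar in sequence, so their counts can depend on how reads were shared among copies, which the sources used here do not state. The cardiac actin actc1a was also higher in the heart tube, with means of 5798 ± 1711 CPM for heart tubes, 97.9 ± 91.7 for proepicardia and 24.6 ± 15.5 for pericardia. Its log2 fold change, proepicardium minus heart tube, was -5.89 ± 0.73 (edgeR adjusted p = 0.00025). For every 100 counts of actc1a there were 1.86, 5.5 and 6.63 counts of acta2 in heart tube 1 to 3, 6.07, 12.8, 2.04 and 2.07 in proepicardium 1 to 4, and 41.8 and 116 in pericardium 1 and 2. This proportion overlapped between heart tube and proepicardium and was highest in the pericardia. Both genes named ACTA1, after the skeletal muscle actin, exceeded their proepicardium level in heart tubes, with log2 fold changes of -5.71 ± 0.66 (ENSDARG00000055618) and -2.02 ± 0.62 (ENSDARG00000036371) for proepicardium minus heart tube (edgeR adjusted p = 0.000134 and 0.0313). The cytoplasmic actins actb1 and actb2 were lower in the heart tube than in the pericardium, with log2 fold changes for heart tube minus pericardium of -2.48 ± 0.54 and -1.69 ± 0.39 (edgeR adjusted p = 0.00547 and 0.00773). The part of read sharing in the values of acta2 was not tested.

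**Figure D2:**
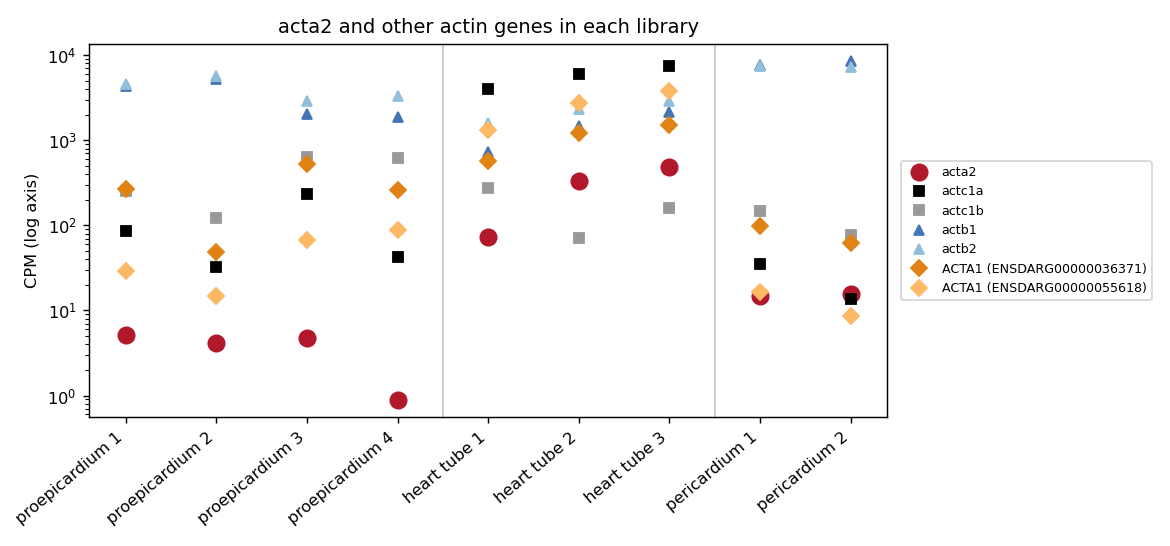
Levels of acta2 (large red points) and other actin genes in each of the 9 libraries, in CPM on a log axis; grey lines separate the tissues. acta2, actc1a and both ACTA1 genes are highest in heart tubes, and actb1 and actb2 in pericardia.

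Transgelin binds actin filaments and is abundant in smooth muscle. The genes that carry its symbol were distributed in opposite ways. TAGLN ENSDARG00000045408 had 128, 521 and 139 counts in heart tube 1 to 3, 3, 5, 15 and 2 in proepicardium 1 to 4, and 32 and 13 in pericardium 1 and 2. In CPM these were 7.07, 36 and 11.3 for heart tubes, 0.169, 0.414, 0.92 and 0.221 for proepicardia and 1.6 and 1.13 for pericardia. The tissues stood in the order of acta2 with no overlap, and proepicardium 1 and 4 held no more than the 3 counts that a count of 0 allows. Of all genes tested, 16% lay without overlap higher in heart tubes than in proepicardia, and 25.2% higher than in pericardia. A further comparison, pericardium above proepicardium, was free of overlap for 7.76%.

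Means of TAGLN ENSDARG00000045408 were 18.1 ± 15.6 CPM for heart tubes (SD, n = 3), 1.37 ± 0.335 CPM for pericardia (SD, n = 2) and 0.431 ± 0.343 CPM for proepicardia (SD, n = 4). Its log2 fold change of proepicardium minus heart tube was -5.33 ± 0.72 (edgeR adjusted p = 0.000297), called in all 18 alternatives, and -5.69 without heart tube 1. Heart tube minus pericardium was 3.71 ± 0.87 (edgeR adjusted p = 0.00834; 0.0752 without pericardium 2). Proepicardium minus pericardium was -1.62 ± 0.76 (95% interval -3.29 to 0.05; edgeR adjusted p = 0.971).

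TAGLN ENSDARG00000033466 had 543 and 441 CPM in pericardium 1 and 2, 374, 317, 171 and 155 in proepicardium 1 to 4, and 20.7, 90.9 and 121 in heart tube 1 to 3. Again no tissues overlapped, but the heart tube was lowest. Among all genes, 19.8% lay higher in every proepicardium than in any heart tube, and 32.9% higher in both pericardia than in any heart tube. The epidermal markers, at 4.13%, 4.47%, 1.16% and 2.71% of the counts in proepicardium 1 to 4, were likewise higher in pericardium and proepicardium than in the heart tube. Within the heart tube the library with the most epidermal counts had the least of this gene, and the part of epidermal cells in its level was not tested.

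Means of TAGLN ENSDARG00000033466 were 492 ± 72.2 CPM for pericardia (SD, n = 2), 254 ± 108 CPM for proepicardia (SD, n = 4) and 77.4 ± 51.4 CPM for heart tubes (SD, n = 3). The proepicardium mean joins libraries 1 and 2, which lay nearer the pericardia, with the lower libraries 3 and 4. Its log2 fold change, proepicardium minus heart tube, was 1.72 ± 0.55 (edgeR adjusted p = 0.0348). It was called in 11 of 18 alternatives. The call was lost without proepicardium 1 (adjusted p = 0.0861), proepicardium 2 (0.0782), heart tube 1 (0.0523), heart tube 2 (0.067) or pericardium 1 (0.0536), all in the same direction. Heart tube minus pericardium gave -2.67 ± 0.62 (edgeR adjusted p = 0.00866; 0.0563 without pericardium 1). Proepicardium minus pericardium gave -0.95 ± 0.57 (95% interval -2.20 to 0.30; edgeR adjusted p = 0.971).

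**Figure D3:**
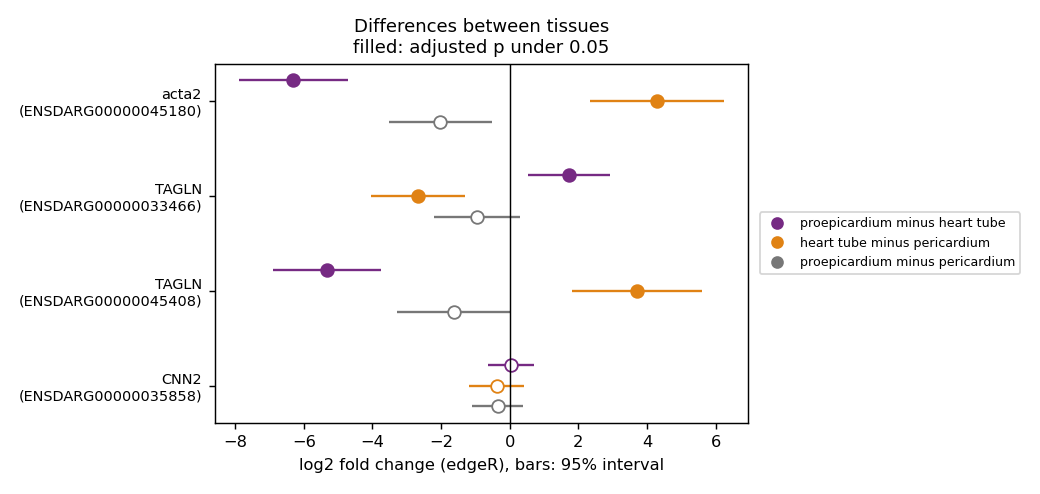
Log2 fold changes of the 4 tested genes in the 3 comparisons, with 95% intervals derived from the edgeR fit. Filled points have an adjusted p under 0.05. In both comparisons with the heart tube, TAGLN ENSDARG00000033466 falls on the other side of 0 from acta2 and TAGLN ENSDARG00000045408.

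The ratio of the TAGLN genes within a library does not depend on library size. Of their summed counts, ENSDARG00000045408 took 25.5% (21.7% to 29.5%) in heart tube 1, 28.4% (26.3% to 30.5%) in library 2 and 8.57% (7.26% to 10%) in library 3, with exact 95% binomial intervals that cover counting error only. It took 0.0451%, 0.131%, 0.536% and 0.142% in proepicardium 1 to 4 and 0.295% and 0.256% in pericardium 1 and 2. Every heart tube share was above every other share, and heart tube 1 was not the lowest of its tissue. The mean log2 ratio, with 0.5 added to each count, was -2.10 ± 1.14 for heart tubes (SD, n = 3), -9.24 ± 1.40 for proepicardia (SD, n = 4) and -8.47 ± 0.12 for pericardia (SD, n = 2). Proepicardium minus heart tube was -7.14, with a two-sided exact permutation p of 0.0286, the smallest that 35 arrangements allow. After adjustment over the 3 comparisons this permutation p was 0.0857, also the smallest possible. The adjusted test therefore could not reach the threshold of 0.05 with these numbers of libraries. Heart tube minus pericardium was 6.37 (exact permutation p = 0.1, the smallest possible). Proepicardium minus pericardium was -0.77 (exact permutation p = 0.6, where the smallest possible is 0.0667).

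**Figure D4:**
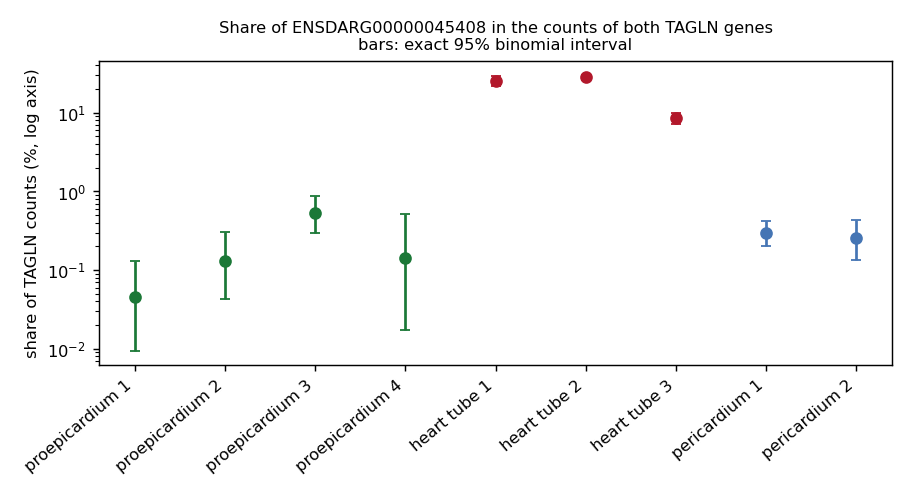
Share of TAGLN ENSDARG00000045408 in the summed counts of both TAGLN genes in each library (percent, log axis), with exact 95% binomial intervals. The 3 heart tube libraries lie above all 6 other libraries.

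CNN2, a calponin found in smooth muscle and in many other cells, had 167, 174, 156 and 155 CPM in proepicardium 1 to 4, 99.9, 150.0 and 230.4 in heart tube 1 to 3, and 221 and 197 in pericardium 1 and 2. Heart tubes spanned the range of all other libraries. Means were 163 ± 9.06 CPM for proepicardia (SD, n = 4), 160.1 ± 65.9 CPM for heart tubes (SD, n = 3) and 209 ± 16.7 CPM for pericardia (SD, n = 2). Proepicardium minus heart tube gave a log2 fold change of 0.03 ± 0.31 (95% interval -0.64 to 0.70; edgeR adjusted p = 0.956), and its sign changed in 7 of 18 alternatives. Heart tube minus pericardium gave -0.38 ± 0.36 (95% interval -1.18 to 0.41; edgeR adjusted p = 0.491). Proepicardium minus pericardium gave -0.36 ± 0.34 (95% interval -1.10 to 0.39; edgeR adjusted p = 0.971).

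elnb encodes an elastin, the protein of elastic fibres, and in zebrafish is known from the bulbus arteriosus. It had 1, 0, 0 and 0 counts in proepicardium 1 to 4, 1, 0 and 0 in heart tube 1 to 3, and 1 and 0 in pericardium 1 and 2. All libraries were under the 3 counts that a count of 0 allows, which correspond to 0.15 to 0.331 CPM. No fold is given, and a difference between tissues was not detectable at this depth.

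Calponin 1 is the calponin most closely tied to differentiated smooth muscle. Although cnn1b matched no identifier, a pair of genes carries the symbol CNN1; they are described after their values were seen and are not assigned to a zebrafish copy. CNN1 ENSDARG00000102398 had 25, 54 and 15 counts in heart tube 1 to 3, 0, 0, 0 and 0 in proepicardium 1 to 4, and 1 and 0 in pericardium 1 and 2. Its heart tube mean of 2.11 ± 1.4 CPM (SD, n = 3) was at least 6.38-fold higher than that of the proepicardium, taking 3 counts per library as the floor (edgeR adjusted p = 0.00322). Against the single count of the pericardium, the ratio of summed counts scaled for depth was 66.0, with an exact counting interval of 11.6 to 2633 (edgeR adjusted p = 0.0239). CNN1 ENSDARG00000017193 had 1, 0, 0 and 0 counts in proepicardium 1 to 4, 0, 0 and 0 in heart tube 1 to 3, and 0 and 3 in pericardium 1 and 2. The genes named CNN3, a widespread calponin, differed in opposite directions between proepicardium and heart tube, by log2 fold changes of 2.12 ± 0.50 (ENSDARG00000029856) and -0.96 ± 0.29 (ENSDARG00000099510; edgeR adjusted p = 0.00776 and 0.026).

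Other genes of the smooth muscle contractile apparatus, where called, were mostly higher in the heart tube. Heart tubes also held the most myocardial markers, at 5.16% to 6.68% of the counts. The part of myocardial cells in the levels of these contractile genes was not tested. The summed level of these contractile genes did not separate heart tube from pericardium. The 25 genes summed to 1460 to 1520 CPM in heart tubes, 603 to 1158 in proepicardia, and 1550 and 914 in pericardium 1 and 2. In pericardium 1, flna alone held 1138 CPM. Of 22 tested, 13 were higher in the heart tube and 3 in the proepicardium, where 12.7% and 16.8% of all genes were called in these directions. They had a median log2 fold change of -2.15 for proepicardium minus heart tube, beside 0.17 over all genes. Against the pericardium, 10 were higher in heart tubes and 4 were lower (11% and 16.1% of all genes), with a median of 1.87 beside -0.09. These 14 calls became 6 without pericardium 1 and 6 without pericardium 2. Between proepicardium and pericardium edgeR called none, and 2 had an unadjusted p under 0.05.

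MYL9 ENSDARG00000008030, a regulatory myosin light chain, had 822, 578 and 499 CPM in heart tube 1 to 3, 9.45 to 40.9 in proepicardia and 15.2 and 11.5 in pericardium 1 and 2. Unlike acta2, it was highest in heart tube 1; its log2 fold change, proepicardium minus heart tube, was -4.77 ± 0.47 (edgeR adjusted p = 4.37e-05). MYL9 ENSDARG00000038123 differed by -1.81 ± 0.33 in the same comparison, the essential light chain myl6 by -2.17 ± 0.40, and MYLK ENSDARG00000004753, named for the kinase of the regulatory chain, by -4.84 ± 0.86 (edgeR adjusted p = 0.00177, 0.00203 and 0.00158). MYH11 ENSDARG00000009782, named for the smooth muscle myosin heavy chain, had 10.3, 12.6 and 22.2 CPM in heart tube 1 to 3 and 1.2 and 0.521 in pericardium 1 and 2, a difference of 4.08 ± 0.82 (edgeR adjusted p = 0.00371). In the same comparison MYLK ENSDARG00000034801 differed by 3.60 ± 0.81, PDLIM7 by 2.74 ± 0.57 and PDLIM3 ENSDARG00000014248 by 4.94 ± 1.02 (edgeR adjusted p = 0.00685, 0.00436 and 0.00519); the last also differed from the proepicardium, by -4.28 ± 0.73 (edgeR adjusted p = 0.00166). The other MYH11 gene, ENSDARG00000100972, did not pass the filter on low counts. It had 0, 7, 1 and 7 counts in proepicardium 1 to 4, 2, 0 and 1 in heart tube 1 to 3, and 10 and 2 in pericardium 1 and 2.

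Some genes of this list ran the other way. The tropomyosin tpm1 was higher in proepicardia than in heart tubes, with 1.83 ± 0.33 on the log2 scale for that difference (edgeR adjusted p = 0.0019), and the alpha-actinin ACTN1 was lower in the heart tube than in the pericardium, with -1.84 ± 0.37 for heart tube minus pericardium (edgeR adjusted p = 0.00365). LMOD1, named for a smooth muscle leiomodin and picked out after its values were seen, had 0, 0 and 0 counts in heart tube 1 to 3 and 26, 8, 121 and 13 in proepicardium 1 to 4 (ENSDARG00000056111). With 3 counts per library as the floor, its proepicardium mean of 2.75 ± 3.14 CPM (SD, n = 4) was at least 11.2-fold higher (edgeR adjusted p = 0.00365). Most of that mean came from proepicardium 3, and without it, in an alternative chosen after seeing the data, the bound was 4.86-fold (edgeR adjusted p = 0.00544). This LMOD1 gene had 21 and 12 counts in pericardium 1 and 2, also called above the heart tube (edgeR adjusted p = 0.0127). It was not called between proepicardium and pericardium (edgeR adjusted p = 0.971). The other gene of that symbol, ENSDARG00000077261, had 1, 100 and 66 counts in heart tube 1 to 3 and 5, 0, 0 and 14 in proepicardium 1 to 4, with a log2 fold change of the opposite sign, -3.26 ± 1.46, that was not called (edgeR adjusted p = 0.12).

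**Figure D5:**
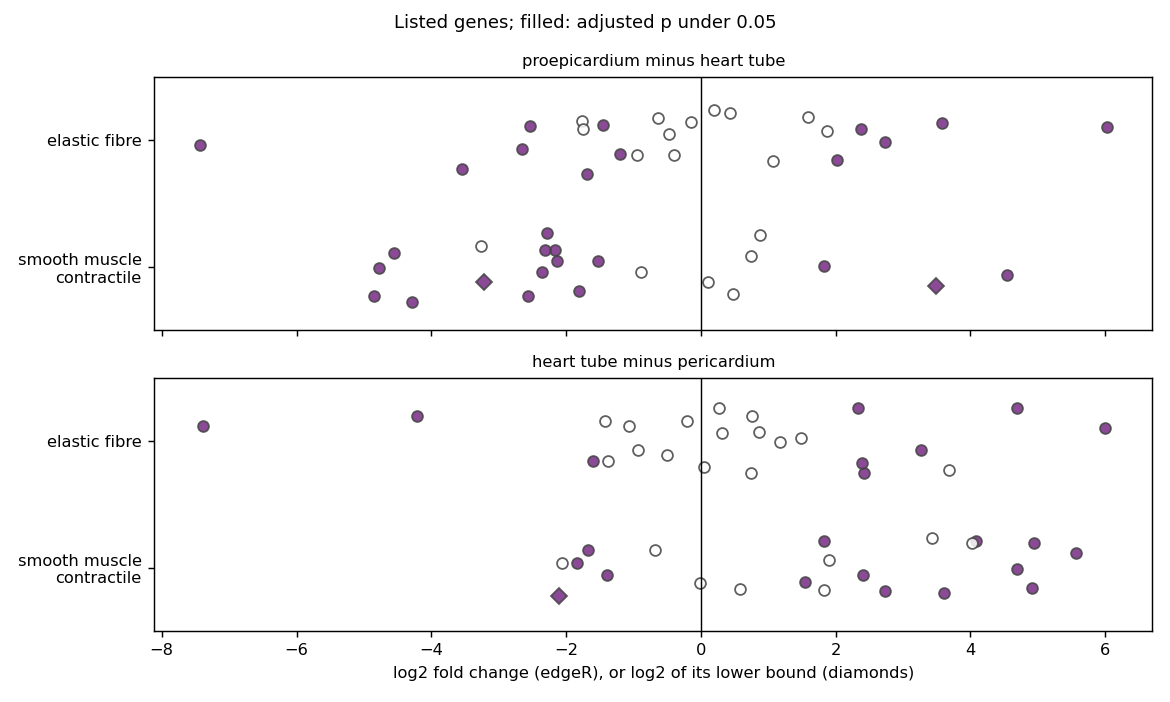
Log2 fold changes of tested smooth muscle contractile and elastic fibre genes in both comparisons with the heart tube; each point is a gene, its height within a strip has no meaning, and filled points have an adjusted p under 0.05. Diamonds are lower bounds for genes at 0 counts in every library of a tissue; filled smooth muscle points lie mostly on the heart tube side, filled elastic fibre points on both sides.

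Serum response factor, with myocardin and related cofactors, is known to drive smooth muscle genes. Of 12 tested genes of these factors and of TGF-beta signals, 3 were called higher in the heart tube and 1 in the proepicardium. These 4 of 12 were near the 29.4% called among all genes, and the list's median of -0.36 stood beside 0.17 over all genes. The myocardin symbol myocd matched no identifier. SRF ENSDARG00000053918 was not called, with a log2 fold change of 0.76 ± 0.76 for proepicardium minus heart tube (edgeR adjusted p = 0.49). The other SRF gene, ENSDARG00000102867, did not pass the filter on low counts. The ligand TGFB3 had 46.2, 92.4 and 86.6 CPM in heart tube 1 to 3, 3.86 to 10.2 in proepicardia and 15.5 and 10.1 in pericardium 1 and 2, a log2 fold change of -3.37 ± 0.39 for proepicardium minus heart tube (edgeR adjusted p = 0.000108). The MEF2C genes, named for a muscle transcription factor, differed by -3.01 ± 0.38 (ENSDARG00000029764) and -2.23 ± 0.47 (ENSDARG00000009418; edgeR adjusted p = 0.000181 and 0.00411). mrtfab, a cofactor of serum response factor, was higher in proepicardia than in heart tubes by 0.91 ± 0.32 (edgeR adjusted p = 0.049), a call that DESeq2 size factors removed, and lower in the heart tube than in the pericardium, with -1.70 ± 0.37 for heart tube minus pericardium (edgeR adjusted p = 0.00538).

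Elastin is laid down on microfibrils and crosslinked by lysyl oxidases, and genes of this assembly moved in both directions. Of 24 tested, 7 were called higher in the heart tube and 5 in the proepicardium, the latter near the 16.8% of all genes called that way and the former beside 12.7%. The median log2 fold change, proepicardium minus heart tube, was -0.43 beside 0.17 over all genes. Without heart tube 2 these 12 calls became 7. Against the pericardium, 6 were higher in heart tubes and 3 were lower (11% and 16.1% of all genes), with a median of 0.53 beside -0.09; 5 were called when either pericardium library was left out. Between proepicardium and pericardium edgeR called none, and 2 had an unadjusted p under 0.05.

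The versican gene vcana had 155, 125 and 86.3 CPM in heart tube 1 to 3, 0.113 to 1.96 in proepicardia and 1.2 and 2.69 in pericardium 1 and 2, with a log2 fold change of -7.44 ± 0.83 for proepicardium minus heart tube (edgeR adjusted p = 0.000142). The emilins, glycoproteins of elastic fibres, were also higher in the heart tube, with -3.55 ± 0.53 for emilin2b and -2.54 ± 0.43 for emilin1b in that comparison (edgeR adjusted p = 0.000526 and 0.00116). LOXL3 ENSDARG00000039563, named for a lysyl oxidase, was higher in the heart tube than in the pericardium by 2.33 ± 0.60 (edgeR adjusted p = 0.0133). LOXL2, named for another lysyl oxidase, had 1.22, 6.35 and 5.79 CPM in heart tube 1 to 3, 33.1 to 73 in proepicardia and 83.9 and 79.6 in pericardium 1 and 2; proepicardium minus heart tube was 3.57 ± 0.54 (edgeR adjusted p = 0.00057). In that comparison FN1 ENSDARG00000006526, named for fibronectin, differed by 6.03 ± 0.98 and the microfibril gene mfap2 by 2.38 ± 0.43 (edgeR adjusted p = 0.00144 and 0.00177). This FN1 gene had 1350 and 3047 CPM in proepicardium 1 and 2 but 272 and 449 in proepicardium 3 and 4. The other FN1 gene, ENSDARG00000019815, had the opposite sign at -0.64 ± 0.36 and was not called (edgeR adjusted p = 0.214). The other versican gene, vcanb, was not called either, at -0.14 ± 0.55 (edgeR adjusted p = 0.87).

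Mural cells are the smooth muscle cells and pericytes of vessels. Their 13 markers summed to 97.9 to 145 CPM in heart tubes, 171 to 332 in proepicardia and 196 to 209 in pericardia. The order of heart tube and pericardium rested on RGS5, a regulator of G protein signalling, with mean levels of 13.1 and 129 CPM. Without it, in an alternative chosen after seeing the data, the sums were 82.1 to 136 CPM in heart tubes, 61.1 to 86.4 in pericardia and 80.4 to 301 in proepicardia, and all tissues overlapped. Of 11 tested, 3 were called between proepicardium and heart tube, a share near the 29.4% of all genes, all of them higher in the proepicardium: foxf2a by 3.45 ± 0.70, PDGFRA by 1.63 ± 0.50 and RGS5 by 2.18 ± 0.68 (edgeR adjusted p = 0.00353, 0.0282 and 0.0332). Libraries of these tissues overlapped for PDGFRA, with 25.9 CPM in proepicardium 1 and 28.1 in heart tube 1. They also overlapped for RGS5, with 19.5 CPM in proepicardium 4 and 24.9 in heart tube 3, but not for foxf2a. Between heart tube and pericardium 1 was called, RGS5 at -3.31 ± 0.77 (edgeR adjusted p = 0.00954), a share below the 27.1% of all genes. There 8 of 11 had a positive log2 fold change for heart tube minus pericardium, with a median of 0.48 beside -0.09 over all genes.

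Genes of outflow tract progenitors and heart fields, which myocardium partly shares, were higher in heart tubes where called. Against the proepicardium 7 of 14 were called that way, beside 12.7% of all genes, and their list had a median log2 fold change of -1.82 beside 0.17. Against the pericardium 6 were, beside 11% of all genes, with a median of 2.41 beside -0.09. For proepicardium minus heart tube, the cardiac factors NKX2-5, nkx2.7 and HAND2 differed by -6.21 ± 0.47, -3.59 ± 0.31 and -2.63 ± 0.45, and the signal BMP4 by -3.71 ± 0.50 (edgeR adjusted p = 1.21e-05, 2.05e-05, 0.00128 and 0.000289). Both MEF2C genes, given above, also count in this list. The listed symbol ltbp3 matched no identifier. The 7 not called included ISL1 at -1.41 ± 0.59 (edgeR adjusted p = 0.0991). A positive log2 fold change was seen for 3 genes and a negative one for 11. The 3 were TBX1 at 1.86 ± 0.79, FGF10 ENSDARG00000030932 at 1.76 ± 0.72 and TCF21 at 1.14 ± 0.75, none called (edgeR adjusted p = 0.103, 0.0876 and 0.282). Markers of other cells were also higher where acta2 was: 9 of 10 myocardial and 7 of 9 endothelial genes were called higher in the heart tube than in the proepicardium. The skeletal muscle markers did not move as a group. Their sum was 3736 to 6441 CPM in heart tubes, 553 to 3003 in proepicardia and 284 to 497 in pericardia, but 9 of 12 had a positive log2 fold change for proepicardium minus heart tube (median 2.40). Only both ACTA1 genes and the creatine kinase ckma, 3 in all, were called higher in the heart tube, ckma with mean levels of 1056 CPM in heart tubes and 93.4 in proepicardia. The myosin gene myhz2 was called lower there (3.96 ± 0.91, edgeR adjusted p = 0.00765), and the other 8 were not called. Among heart tubes, all 8 were highest in library 1. In heart tube 1 to 3, pvalb2 had 3989, 41 and 23 counts and MYOD1 had 354, 14 and 15. The part of heart tube 1 in the missing calls was not tested. The part of myocardial and endothelial cells in the levels of acta2 and TAGLN ENSDARG00000045408 was not tested.

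Over the 9 libraries, which share 3 tissues, log2 CPM of acta2 and TAGLN ENSDARG00000045408 correlated at Pearson r = 0.94, and TAGLN ENSDARG00000033466 and CNN2 at 0.77. Among 8208 candidate genes with a symbol and a mean of at least 10 CPM in some tissue, the patterns most like acta2 were those of SIRT1 (r = 0.99), NDFIP1 (r = 0.99) and SLC48A1 (r = 0.99). For TAGLN ENSDARG00000045408 they were ACOT9 (r = 0.97), TGFB3 (r = 0.96) and SIRT1 (r = 0.96), for TAGLN ENSDARG00000033466 ARFIP1 (r = 0.99), tsc22d3 (r = 0.99) and tpm3 (r = 0.98), and for CNN2 PLPP1 (r = 0.93), ptmaa (r = 0.91) and nadkb (r = 0.89). These are descriptions of 9 libraries and carry no test. A correlation does not give the size of a change. SIRT1 had means of 8.75, 14.7 and 10.2 CPM in proepicardia, heart tubes and pericardia, where acta2 had 3.73, 299 and 15.3.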

How the data were processed

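The authors deposited a table of raw read counts, not normalised, with Ensembl identifiers. The submitters' processing notes name CASAVA 1.8, fastp, STAR, featureCounts and DESeq2 and the build GRCz11 (danRer11), without roles; annotation release and strand setting are not given in the sources used here, so overlapping and near-identical genes are uncertain. The authors' deposited normalised table is on a log2 scale, and all 193374 of its values lay within 1e-06 of a regularised log2 transformation made here with DESeq2. The 16 rows of constructs, at most 0.0309% of a library, were left out of tests.

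The name table gave symbols for 29201 of 32520 identifiers. List genes were matched exactly or without regard to case, then by older symbols, by the human-style symbol of a copy, or by RefSeq synonyms (names only, assembly GRCz12tu). Human-style matching was adopted after the name table and some counts had been seen. Listed symbols left without a match included desma and desmb among smooth muscle genes. Among elastic fibre genes they included fbn1, ltbp2 and ltbp3. No genome of the build was used, and no coordinates or sequences are given.

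Tests used edgeR 4.0.16 under R 4.3.3 (filterByExpr with minimum count 10 and total 15, TMM, robust glmQLFit, glmQLFTest), with tissue as the only factor over 9 libraries and Benjamini-Hochberg adjustment over 17003 genes. The fit was tested on simulated data. The members and lists were chosen with earlier results of these data known. List genes named by rule are those called whose higher tissue averaged 5 CPM or more. At most 6 were taken per list and comparison, by smallest p. Other list genes were named outside this rule. Among them are CNN1, LMOD1, SRF, ISL1, TBX1, FGF10, TCF21, vcanb, FN1 ENSDARG00000019815, MYH11 ENSDARG00000100972 and single markers of cell types. The planned ratios of elnb to elna and of cnn1b to cnn2 were not computed for want of identifiers; that of tagln to tagln2 was replaced by the ratio of the TAGLN genes and adjusted over 3 comparisons instead of 3 ratios. Alternatives were DESeq2 size factors, upper-quartile factors, no filter, a mean of at least 50 counts, DESeq2 1.42.0, limma-voom (limma 3.58.1), limma on the normalised table, the compared tissues alone, a replicate block and each library left out.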

Additional observations from a re-analysis of the deposited data

How the results depend on the processing

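With replicate numbers as a block, 7 elastic fibre genes were called between proepicardium and heart tube in place of 12, and TAGLN ENSDARG00000033466 had an adjusted p of 0.064 there. The main test did not take the numbers as pairs. Deviations of same-numbered libraries correlated at 0.0246 to 0.0598 between these tissues. They correlated at -0.0179 and 0.0249 between heart tube and pericardium, and at 0.083 and 0.1295 between proepicardium and pericardium. Differently numbered libraries were not correlated for reference, so these values cannot decide whether the numbers are pairs. With the compared tissues alone, TAGLN ENSDARG00000033466 had an edgeR adjusted p of 0.0507 between proepicardium and heart tube. limma-voom called 6926 genes and 14 elastic fibre genes between heart tube and pericardium, against 4613 and 9 with edgeR. Between proepicardium and pericardium 9 genes were called with no filter, 99 with DESeq2 and 7 with limma-voom, against 0 with edgeR, where 834 had an unadjusted p under 0.05. With single libraries left out, calls between heart tube and pericardium numbered 1 to 3 of the tested genes, 2231 to 4750 of all genes, 6 to 16 smooth muscle genes and 5 to 10 elastic fibre genes, and 7 to 10 elastic fibre genes between proepicardium and heart tube. The difference in the TAGLN log2 ratio between proepicardium and heart tube ran from -7.80 to -6.59, with exact permutation p-values of 0.0667 or 0.1, the smallest those numbers of libraries allow. For CNN2 that comparison turned to -0.05 with no filter, -0.0095 with a mean of at least 50 counts and -0.0253 with limma-voom, and ran from -0.216 to 0.376 with single libraries left out. Without RGS5 the mean mural sum of heart tube minus pericardium turned from -86.2 to 29.8 CPM. The cause of the other changes was not tested. Where 1 library of a tissue is left, it is assumed to vary like the others. Depth limits elnb, CNN1 and the counts of TAGLN ENSDARG00000045408 in the proepicardium.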
